A study of Mus musculus with 120 samples.

Results

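Matrix metalloproteinases (MMPs) are zinc-dependent enzymes that degrade collagens, elastin and other components of the extracellular matrix, and tissue inhibitors of metalloproteinases (TIMPs) bind their active sites and block them. Most MMPs are secreted as inactive proenzymes that other proteases, including plasmin and other MMPs, activate, so that a transcript level is not a level of enzyme activity. Around an implanted biomaterial, macrophages, the multinucleated giant cells that form from them, and fibroblasts are known sources of these enzymes. The 10 genes described here were chosen by name and are the MMP genes *Mmp2*, *Mmp3*, *Mmp9*, *Mmp12*, *Mmp13*, *Mmp14* and *Mmp19* and the inhibitor genes *Timp1*, *Timp2* and *Timp3*. Each was listed once in both count tables, so that they make up 10 of the 55487 genes the tables share.

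The tissue was the immunological niche (IN) that forms in a porous polycaprolactone scaffold implanted under the skin, and the 120 biopsies were sequenced as bulk RNA. NOD/ShiLtJ mice are prone to autoimmune diabetes, and NOR/LtJ mice are a related strain that does not develop it; all mice were female and none is labelled with a transgene or a treatment. The study's methods name carprofen, an anti-inflammatory analgesic, given around surgery. The 5 NOR mice gave 23 biopsies at 6 to 22 weeks of age, and NOD mice that stayed normoglycemic (nonprogressors) gave 39, of which 33 came from 11 mice with an age label and 6 are labelled by days after implantation. The 10 NOD mice that became hyperglycemic (progressors) gave 58 biopsies, at 6 weeks of age and at 7, 5, 3 and 1 weeks before onset and at onset (written −7 to onset), so that their later ages are not matched to those of the other groups. Scaffolds were placed before the first biopsy and replaced in rotation afterwards, so that age, time of engraftment and repeated surgery cannot be told apart in a comparison of later biopsies with those at 6 weeks. All NOR samples were in sequencing batch 1 (74 samples), and batch 2 (46 samples) held other NOD mice and all 8 samples at −7 weeks. Among those 8 were samples of progressor mice 1 to 4, whose other samples were in batch 1.

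Totals per sample ran from 4722396 to 56185434 expected counts. One 18-week NOR library (mouse 5) had 85.7% of its counts on 1 ribosomal RNA gene, the 18-week library of nonprogressor mouse 3 was the shallowest, and the 22-week nonprogressor libraries had 12.8% to 30.5% of theirs on *Rn7s2*, a 7SL RNA gene. Of the 8 macrophage markers examined, all but *Fcgr1* (at 0 in 1 sample) were detected in every sample, with a summed level of 1719 to 3867 CPM (counts scaled to a common library size), and the fibroblast markers summed to 1334 to 7413 CPM. Among 9 neutrophil markers, *Csf3r* had the highest median, 20.4 CPM, and was detected in every sample, followed by *Cxcr2* at 4.07 CPM. The other medians ran from 0.027 (*Camp*) to 0.91 CPM (*Ltf*). *Ly6g* had a median of 0.034 CPM and was at 0 in 38 samples. Levels below are CPM scaled by edgeR's TMM method, and differences are log2 changes ± standard error (SE) with Benjamini-Hochberg adjusted p-values from edgeR's quasi-likelihood test over all genes. In bulk biopsies, fewer cells of a type and less RNA per cell cannot be told apart.

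On GRCm38, *Mmp13* (chr9:7272514-7283331), *Mmp12* (chr9:7344381-7369499) and *Mmp3* (chr9:7445822-7455975) lie near each other on the plus strand of chromosome 9. Of the others, *Mmp2* is at chr8:92827291-92853420, *Mmp9* at chr2:164940780-164955850, *Mmp14* at chr14:54431612-54445364 and *Mmp19* at chr10:128790910-128800824. The inhibitor genes are at chrX:20870166-20874735 (*Timp1*), chr11:118301069-118355740 (*Timp2*) and chr10:86300372-86349506 (*Timp3*). Values are gene totals, with introns and untranslated regions not separated.

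The transcription factor AP-1, a dimer of Fos and Jun family proteins, is known to act on MMP promoters. The neighbours on chromosome 9 are shown because they share its motif. RefSeq promoter windows of GRCm38.p6 (250 bases before to 50 bases after a start) were found for 7 of the 10 genes. The AP-1 motif TGANTCA, which reads the same on both strands, was in the windows of *Mmp13*, *Mmp12* (at the downstream of its 2 listed starts) and *Mmp3*. It was in none of the windows of *Mmp14*, *Timp1*, *Timp2* and *Timp3*, and in 7.81% of all 32851 windows. The 100 bases before the start are printed 5′ to 3′ for chr9:7272414-7272513 (*Mmp13*), chr9:7347274-7347373 (*Mmp12*) and chr9:7445722-7445821 (*Mmp3*), all on the plus strand, with the motif in capitals.
Mmp13: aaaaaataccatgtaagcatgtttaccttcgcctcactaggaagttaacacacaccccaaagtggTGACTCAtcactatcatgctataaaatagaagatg
Mmp12: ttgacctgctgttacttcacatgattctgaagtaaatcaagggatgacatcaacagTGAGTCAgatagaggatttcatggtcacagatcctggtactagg
Mmp3: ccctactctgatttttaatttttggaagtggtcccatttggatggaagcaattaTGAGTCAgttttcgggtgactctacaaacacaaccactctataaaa
The motif began 35, 44 and 46 bases before the start in *Mmp13*, *Mmp12* and *Mmp3*, respectively. A match of letters is a description of these windows and not evidence of binding.

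*Mmp12*, macrophage elastase, was the most abundant of the 10 genes by far. Per kb of the principal transcript, its median over the 120 samples was 1034 CPM, against 240.2 for *Timp2*, the broadly expressed inhibitor that also takes part in the activation of proMMP2. Next came *Mmp2* (gelatinase A) at 175.4, *Mmp19* at 172.4 and *Mmp14*, the membrane-type enzyme that activates proMMP2, at 166.1 CPM per kb, and the ranges of these 3 genes overlapped. *Timp1* had a median of 88.3, *Mmp9* (gelatinase B) 52.0, *Timp3*, which is bound to the matrix, 47.4, *Mmp3* (stromelysin 1) 36.9 and *Mmp13* (collagenase 3) 34.8 CPM per kb.

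*Mmp12* ranked first per kb in 113 of 120 samples, and in 102 when all annotated exons were taken as the length. It made up 60.5% of the summed per-kb level of the 7 MMP genes in the median sample, with a range from 17.2% to 89.3%. The length of all exons placed *Mmp14* lower, at a median of 72.4 CPM per kb, below *Timp1* at 87.8. The highest sample was 175-fold above the lowest for *Mmp3* and 110-fold for *Mmp9*; without the 18-week library of NOR mouse 4 (705.8 CPM) the range of *Mmp3* was 75.8-fold. *Timp2* varied least (2.56-fold).

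Overlapping genes on the other strand could share reads with a member if strand was ignored in counting, which the sources used here do not state. *Mmp1b*, which overlaps *Mmp12*, reached at most 0.0972 CPM, and *Syn3*, which overlaps *Timp3*, at most 4.88 CPM. *Syn1* beside *Timp1* reached 8.08 CPM, and *Tmem198b* beside *Mmp19* 37.6 CPM. *Cep295nl*, on the same strand as *Timp2*, reached 23.7 CPM.

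**Figure D1:**
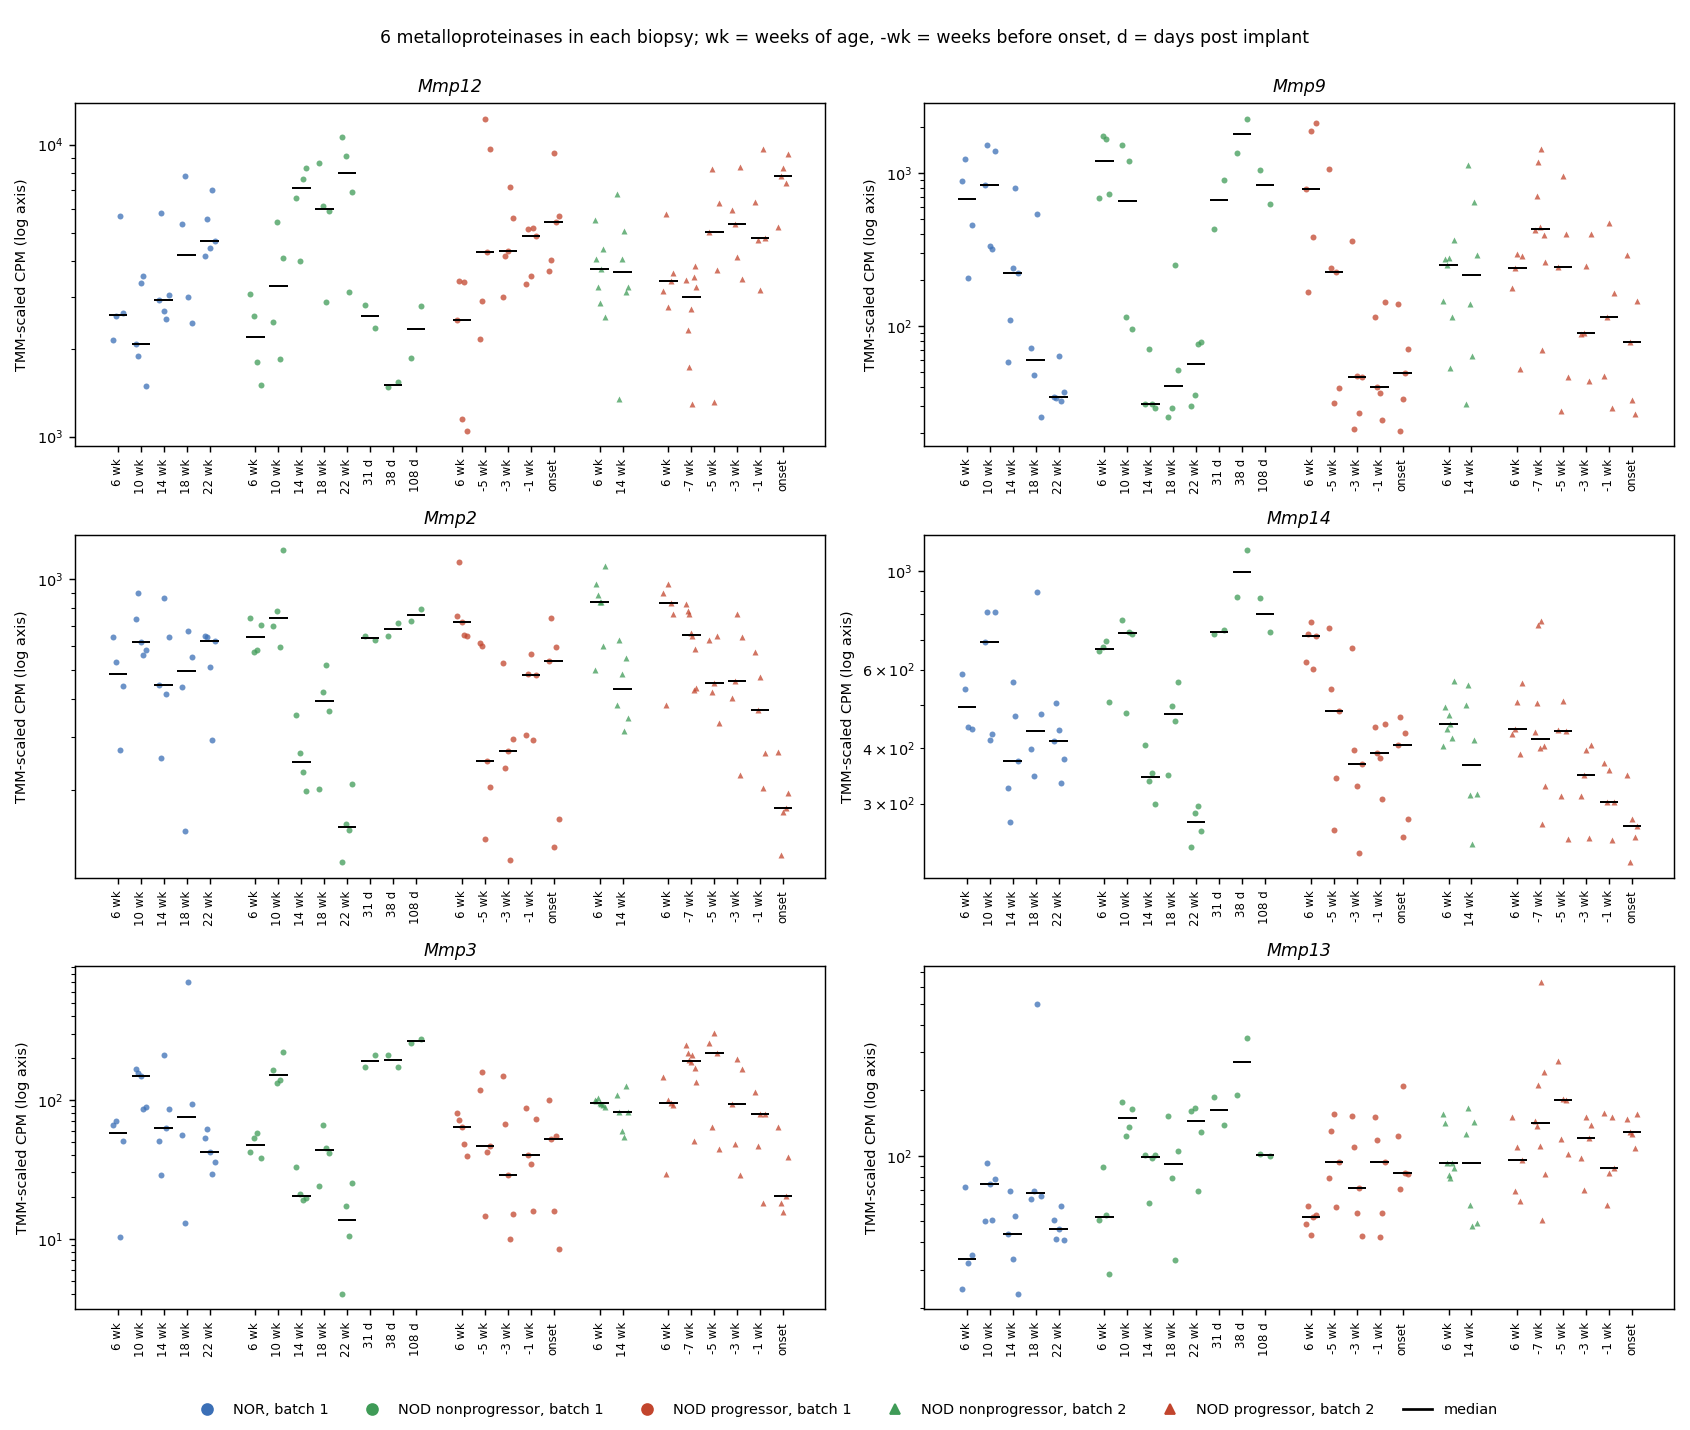
TMM-scaled CPM (log axis) of 6 MMP genes in each of the 120 biopsies, by group, batch (circles for batch 1, triangles for batch 2) and time; bars are medians. In batch 1, *Mmp12* is higher and *Mmp9* lower in most later biopsies than at 6 weeks, and the biopsies labelled by days after implantation have *Mmp9* between 431.7 and 2273 CPM.

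NOD and NOR were compared first, with the biopsies of each mouse summed (9 NOD and 5 NOR mice of batch 1). Of the 10 genes, 1 passed the test, against 8.92% of the 23387 genes tested (3.87% higher and 5.04% lower in NOD). *Mmp19*, a secreted MMP of broad tissue distribution, had 542.2, 548.6, 570.7, 589.8 and 723.3 CPM in the 5 NOR mice. In the 9 NOD mice it ranged from 626.6 to 789.8 CPM with a median of 775.4. Only NOR mouse 2 lay within the NOD range, and *Mmp19* was higher in NOD by 0.30 ± 0.07 on the log2 scale (1.24-fold, adjusted p = 0.017).

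The *Mmp19* call was not kept when only 6-week samples were compared (0.15, adjusted p = 0.755) or when only nonprogressors stood for NOD (0.23, adjusted p = 0.197). It was also lost without NOR mouse 1, 3 or 4 (highest adjusted p 0.0525). *Mmp13* had 45.1, 46.5, 57.4, 69.8 and 128 CPM in the NOR mice and 65.0 to 129.7 in the NOD mice (0.47 ± 0.23, adjusted p = 0.252). Without the 18-week library of NOR mouse 4, the difference in *Mmp13* was 0.84 and passed (adjusted p = 0.00255). That library had 498.1 CPM of *Mmp13*, and its neutrophil markers summed to 391.6 CPM, against 5.05 to 35.5 CPM in the other 3 NOR libraries of that age; their part in the result was not tested. The other 8 members had log2 differences between -0.72 (*Mmp3*) and 0.38 (*Mmp12*).

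In nonprogressors of batch 1, *Mmp12* and *Timp1* rose and *Mmp9*, *Mmp2* and *Mmp14* fell from 6 weeks to the mean of 10, 14, 18 and 22 weeks, which is 5 of 10 members against 12.1% of all 21131 genes tested (5.93% higher and 6.13% lower). *Mmp9* had 692.1, 1752, 1676 and 728.6 CPM in mice 1 to 4 at 6 weeks. At 10 weeks it had 1518 and 1198 CPM in mice 1 and 3, and 114 and 95.3 CPM in mice 2 and 4. All 4 mice lay between 28.9 and 70.8 CPM at 14 weeks and between 29.9 and 79.0 CPM at 22 weeks.

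At 18 weeks mice 1, 2 and 4 had 25.3, 29.2 and 51.7 CPM and mouse 3, whose library was the shallowest, had 248.7 CPM. All values at 14, 18 and 22 weeks thus lay below the 6-week values, and at 10 weeks mice 1 and 3 lay within them and mice 2 and 4 below. *Mmp9* fell by 3.48 ± 0.65 on the log2 scale (11.1-fold, adjusted p = 0.00054), with lower later means in 4 of 4 mice. This was the member call that was kept without the 22-week libraries and without any 1 mouse.

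*Mmp12* moved the other way. Its 6-week values were 3088, 2595, 1805 and 1504 CPM in mice 1 to 4, and its 14-week values 6548, 3998, 7630 and 8339 CPM. At 22 weeks the mice had 10600, 9170, 3116 and 6880 CPM. At 10 weeks they had 2465, 5420, 1850 and 4096 CPM, and at 18 weeks 8650, 6149, 2901 and 5906 CPM. Each value at 14 and 22 weeks was above all 6-week values, while mice 1 and 3 at 10 weeks and mouse 3 at 18 weeks overlapped them. The change over the later ages was 1.32 ± 0.37 (2.49-fold, adjusted p = 0.016).

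*Mmp2* went from 574.7 to 744.1 CPM at 6 weeks to 115.3 to 209.8 CPM at 22 weeks (-0.96 ± 0.32 over the later ages, adjusted p = 0.04). *Mmp14* went from 506.4 to 694.7 CPM to 239.6 to 295.9 CPM (-0.62 ± 0.20, adjusted p = 0.0325). The 22-week values of both genes lay below all values at 6 and 10 weeks. *Timp1*, an inhibitor that is induced in injured tissue, had 39.5 to 63.8 CPM at 6 weeks and 79.3 to 165.5 CPM at 14 weeks, and 95.7, 124.1, 34.5 and 107.6 CPM in mice 1 to 4 at 22 weeks, where mouse 3 lay below all 6-week values (0.77 ± 0.27 over the later ages, adjusted p = 0.0499). *Timp2*, *Timp3*, *Mmp3*, *Mmp13* and *Mmp19* did not pass, with changes from -0.30 to 1.02.

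Without the 22-week libraries, *Mmp9* was the only member that passed (adjusted p = 0.00978), and *Mmp12* (1.17, adjusted p = 0.0557), *Timp1* (0.75, 0.0794), *Mmp2* (-0.60, 0.301) and *Mmp14* (-0.42, 0.232) did not. Leaving out 1 mouse at a time gave 1 to 5 calls; without nonprogressor mouse 1 or 4 it was 1, without mouse 3 it was 2, and without nonprogressor mouse 2 or NOR mouse 1 it was 3. The summed giant cell and osteoclast-like markers ran from 1119 to 2731 CPM at 6 weeks and from 790.1 to 1207 CPM at 22 weeks, with 3 of 6 markers lower in the same comparison. The fibroblast markers ran from 4147 to 5196 and from 1610 to 2279 CPM, with 3 of 8 lower. The part of either set of cells in the MMP changes was not tested.

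From 10 to 22 weeks in nonprogressors, 5 of 10 members fell and none rose, against 12.1% of all genes (5.18% higher and 6.96% lower). *Mmp3*, which cleaves proteoglycans and activates other proMMPs, had 163.1, 133, 138 and 222 CPM in mice 1 to 4 at 10 weeks and 4.02, 17.1, 10.4 and 25.2 CPM at 22 weeks. The groups did not overlap, and *Mmp3* fell by 3.55 ± 0.81 on the log2 scale in 4 of 4 mice (11.7-fold, adjusted p = 0.00275). All 10-week values of *Mmp3* lay above those at 6 weeks (38.3 to 57.5 CPM), and its change over all later ages was -0.30 ± 0.57.

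*Mmp9* fell by 3.74 ± 1.06, *Mmp2* by 2.41 ± 0.45, *Mmp14* by 1.32 ± 0.27 and *Timp2* by 0.79 ± 0.15 (adjusted p = 0.0149, 0.000384, 0.000763 and 0.000481) over the same interval. The *Mmp9* call was lost without nonprogressor mouse 1 or 3 (highest adjusted p 0.133). *Mmp12* was higher at 22 weeks in 4 of 4 mice and did not pass (adjusted p = 0.084; by DESeq2 1.13, adjusted p = 0.0451). Among fibroblast markers, 7 of 8 were lower, including *Lum* at -2.69. The 22-week libraries had 12.8% to 30.5% of counts on *Rn7s2*, against 3.08% to 4.55% at 10 weeks, and 2.26% to 7.03% on mitochondrial genes, against 0.915% to 1.57%; the part of these in the lower levels was not tested.

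**Figure D2:**
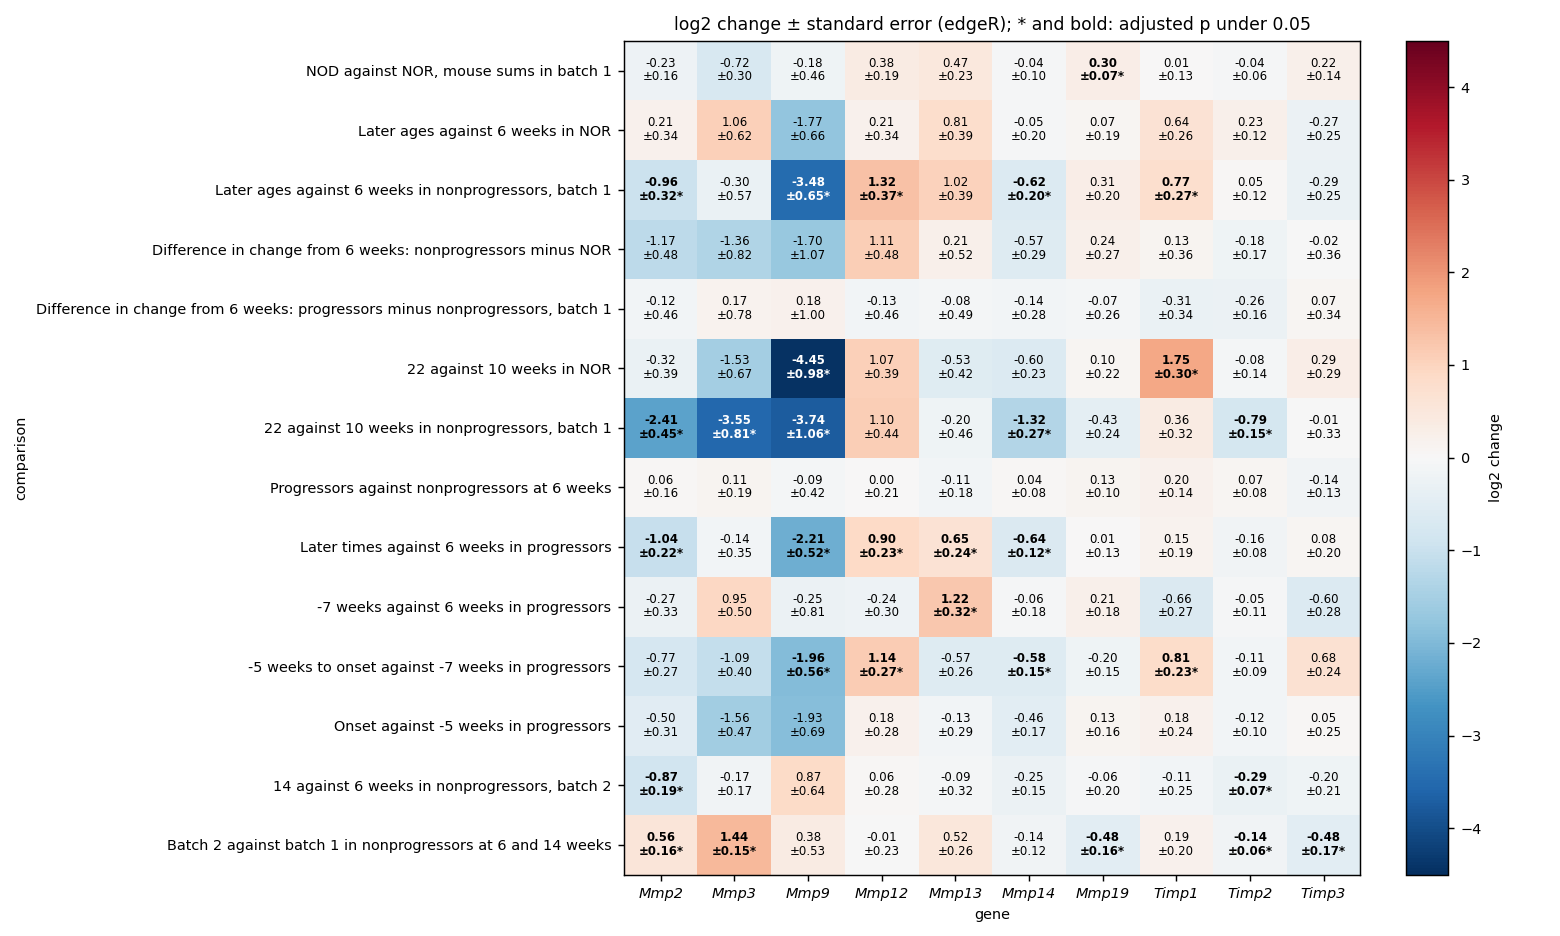
Log2 change ± standard error of the 10 genes (columns) in the 14 comparisons (rows), from edgeR; bold and an asterisk mark an adjusted p under 0.05. *Mmp9* has the lowest values, -4.45 for 22 against 10 weeks in NOR and -3.74 in nonprogressors, and no gene is marked in the comparison of progressors with nonprogressors at 6 weeks.

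In NOR mice, none of the 10 passed between 6 weeks and the later ages by edgeR or DESeq2, while 3 had an unadjusted p under 0.05; 0.0946% of all genes passed (0.0189% higher and 0.0757% lower). *Mmp9* had 890.9, 1242, 205.6 and 460.1 CPM in mice 1, 2, 4 and 5 at 6 weeks, and 25.3 to 539.8 CPM at 18 weeks (-1.77 ± 0.66 over the later ages, adjusted p = 0.569). At 22 weeks the 5 mice lay between 32.0 and 63.8 CPM.

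From 10 to 22 weeks in NOR, 2 of 10 passed, against 11.2% of all genes (5.17% higher and 6.03% lower). *Mmp9* was 838.7, 1521, 333.4, 318.6 and 1407 CPM in the 5 mice at 10 weeks and 34.3, 33.6, 63.8, 32.0 and 37.0 CPM at 22 weeks. It was lower in 5 of 5 mice without overlap and fell by 4.45 ± 0.98 on the log2 scale (21.9-fold, adjusted p = 0.00152). *Timp1* was 34.8 to 50.2 CPM at 10 weeks and 128.5, 190.2, 202.6, 100 and 121.3 CPM at 22 weeks, and it rose in 5 of 5 mice by 1.75 ± 0.30 (3.36-fold, adjusted p = 8e-05).

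*Mmp12* was higher at 22 weeks in 5 of 5 NOR mice (1.07 ± 0.39, adjusted p = 0.0632; with a term for the mouse 1.12, adjusted p = 0.0457). *Mmp2* was 561.9 to 896 CPM at 10 weeks and 292.6 to 647.4 CPM at 22 weeks (-0.32 ± 0.39, adjusted p = 0.677). *Mmp3* was 167, 155.2, 147.7, 86.6 and 89.4 CPM in mice 1 to 5 at 10 weeks and 52.9, 62.1, 42.0, 29.4 and 35.6 CPM at 22 weeks. It was lower in 5 of 5 mice without overlap and did not pass (-1.53 ± 0.67, adjusted p = 0.138). Of the giant cell and osteoclast-like markers, 5 of 6 were lower at 22 weeks, including *Oscar* (-6.96) and *Acp5* (-2.53). Over all samples *Oscar* had a median of 1.75 CPM and a highest level of 43.6 CPM. Of the fibroblast markers, none of 8 was lower and *Pi16* was higher (2.54).

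The change from 6 weeks to later ages was then compared between nonprogressors and NOR. None of the 10 members passed, none of the 21131 genes did (0.0%) while 1245 genes were below 0.05 before adjustment. The DESeq2 count was 12 genes, without a member. The differences in change were -1.70 ± 1.07 for *Mmp9*, -1.17 ± 0.48 for *Mmp2* and 1.11 ± 0.48 for *Mmp12* (adjusted p = 0.866, 0.847 and 0.847). The interval of 2 SE for *Mmp9* ran from -3.84 to 0.43, so that these samples do not show the strains to change alike or differently.

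Progressors and nonprogressors were compared at 6 weeks of age over both batches, with 10 and 11 mice. None of the 10 members passed by edgeR or DESeq2, none had an unadjusted p under 0.05, and 0.0% of 19082 genes passed. *Mmp12* had a median of 2505 CPM in progressors and 2200 CPM in nonprogressors of batch 1, and 3418 and 3744 CPM in batch 2 (0.00 ± 0.21 on the log2 scale over both batches). The interval of 2 SE was -0.42 to 0.43 for *Mmp12*, -0.27 to 0.38 for *Mmp2*, -0.12 to 0.21 for *Mmp14* and -0.09 to 0.24 for *Timp2*. It was wider for *Mmp9* (-0.94 to 0.75), whose 6-week values ranged from 52.0 to 2132 CPM in progressors. *Timp1* had the largest of the 10 differences (0.20 ± 0.14, adjusted p = 0.903).

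In progressors, *Mmp12* and *Mmp13* rose and *Mmp2*, *Mmp9* and *Mmp14* fell between 6 weeks and the mean of −5, −3, −1 weeks and onset. These were 5 of 10 members, in a comparison in which 39.4% of 21279 genes passed (19.5% higher and 19.9% lower). *Mmp2* was 383.7 to 1139 CPM over the 10 mice at 6 weeks (median 721.1 in batch 1 and 830.0 in batch 2). At onset it had 129.3 to 740.9 CPM in batch 1 and 122.1, 168.4, 173.6, 195.8 and 266.6 CPM in batch 2.

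The batch 2 onset values of *Mmp2* lay below all batch 2 values at 6 weeks, while those of batch 1 overlapped. *Mmp2* fell by 1.04 ± 0.22 (2.06-fold, adjusted p = 0.000168), by 1.07 in batch 1 and by 1.09 in batch 2, and its later mean was lower in 10 of 10 mice. *Mmp14* fell by 0.64 ± 0.12 (1.56-fold, adjusted p = 4.6e-05), also in 10 of 10 mice. Its 6-week values were 601.5 to 767.7 CPM in batch 1 and 387.6 to 558.6 CPM in batch 2, and its onset values 252.7 to 468.4 and 221.7 to 347.3 CPM, with no overlap within either batch.

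*Mmp12* rose by 0.90 ± 0.23 (1.87-fold, adjusted p = 0.0017), and its later mean was higher in 10 of 10 mice. In batch 1 it was 2505, 3403, 1150, 3382 and 1049 CPM at 6 weeks and 3684, 4022, 9378, 5448 and 5701 CPM at onset. In batch 2 it was 3159, 5802, 2777, 3418 and 3645 CPM at 6 weeks and 5231, 7839, 8324, 7381 and 9288 CPM at onset. The groups did not overlap in batch 1, and 1 onset value of batch 2 lay below its highest 6-week value. The highest single level of *Mmp12* in the series was 12270 CPM, in progressor mouse 3 at −5 weeks.

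*Mmp9* fell by 2.21 ± 0.52 (4.64-fold, adjusted p = 0.000592) over both batches, and the values by batch follow. In batch 1 it was 782.4, 166, 1887, 383.8 and 2132 CPM at 6 weeks and 138.1, 20.6, 33.4, 49.0 and 70.1 CPM at onset, with a change over the later times of -3.29 (adjusted p = 0.00113). In batch 2 it was 52.0 to 293.4 CPM at 6 weeks and 26.5 to 290.3 CPM at onset, with a change of -0.21 (adjusted p = 0.838). The difference between the batches was not tested, and batch cannot be told apart from the cohort of mice.

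*Mmp13*, a collagenase, was 43.1 to 59.1 CPM at 6 weeks and 70.6, 82.5, 83.1, 123.4 and 209.6 CPM at onset in batch 1, without overlap. It rose by 0.65 ± 0.24 (1.57-fold, adjusted p = 0.0265) with a higher later mean in 10 of 10 mice. Within batch 1 the change was 0.94 (adjusted p = 0.0307), and within batch 2 it was 0.40 (adjusted p = 0.402). The call was lost without progressor mouse 1, 2, 3 or 9 (highest adjusted p 0.0694). *Mmp12* in batch 2 alone was 0.63 higher with an adjusted p of 0.0948, so that *Mmp2* and *Mmp14* were the members that passed in each batch. *Timp1*, *Timp2*, *Timp3*, *Mmp3* and *Mmp19* did not pass, with changes between -0.16 and 0.15.

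All 8 fibroblast markers were lower in the same comparison (*Pi16* -1.48, *Dpt* -1.40, *Lum* -1.36), and of the giant cell and osteoclast-like markers *Oscar* (-2.41) and *Ocstamp* (-1.50) were lower and *Dcstamp* (0.59) higher. The fibroblast sum was 5189 to 7413 CPM at 6 weeks and 1720 to 3917 CPM at onset in batch 1, and 4421 to 5696 and 1334 to 2163 CPM in batch 2. Mammary epithelium markers (3 of 5) and epidermis and hair follicle markers (4 of 7) were higher. In batch 1, mitochondrial genes held 1.20% to 1.41% of counts at 6 weeks and 1.30% to 2.99% at onset. At onset there, *Rn7s2* held 4.85% to 14.0%. Mice 3 and 5, with 13.9% and 14.0%, had the lowest *Mmp2* of that group, 129.3 and 160.2 CPM. In batch 2 the mitochondrial share was 0.74% to 1.25% at 6 weeks and 0.58% to 1.76% at onset. The part of these shifts in the changes of the members was not tested. The macrophage sum was 2269 to 2994 and 2322 to 2805 CPM in batch 1 and 2340 to 3059 and 2491 to 3677 CPM in batch 2, with 1 of 8 markers lower and none higher.

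When the change from 6 weeks was compared between progressors and nonprogressors within batch 1, no member passed by edgeR or DESeq2, none had an unadjusted p under 0.05, and 0.00946% of all genes passed. The differences in change were -0.13 ± 0.46 for *Mmp12*, -0.12 ± 0.46 for *Mmp2*, -0.14 ± 0.28 for *Mmp14* and 0.18 ± 1.00 for *Mmp9*. Intervals of 2 SE reached 2.19 on the log2 scale for *Mmp9*, so that similar changes are not shown. The later times of progressors are counted from onset and those of nonprogressors from birth.

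The samples at −7 weeks, all in batch 2, differed from 6 weeks in 1 member, against 12.5% of all genes (5.87% higher and 6.61% lower). *Mmp13* was 50.8 to 631 CPM at −7 weeks (median 141.2, 8 mice) and rose by 1.22 ± 0.32 (2.33-fold, adjusted p = 0.007) in the model with batch as a term. A fit within batch 2 held all 8 samples at −7 weeks but no 6-week samples of progressor mice 1 to 4, so that time and cohort are mixed. In it the change of *Mmp13* was 1.03 (adjusted p = 0.0699). Of the 4 mice with both samples in batch 2, 2 were higher. *Timp1* passed in that fit instead, at -0.87 (adjusted p = 0.0298), where 19% of all genes passed. Over both batches it passed without progressor mouse 5. Its values at −7 weeks, 44.7 to 78.8 CPM, lay below all 6-week values of batch 2 (99.1 to 144.7 CPM). Progressor mice 1 to 4 had 67.53, 77.12, 64.74 and 51.49 CPM at −7 weeks. In batch 1 at 6 weeks, these mice had 63.71, 60.62, 47.95 and 64.84 CPM. Within batch 2, *Timp1* was lower at −7 weeks in 4 of 4 mice with both samples. Over all 8 mice with both times it was lower in 5 and higher in 3. Those 3 were among mice 1 to 4, whose samples at the 2 times were in different batches. *Mmp3* was 208.6, 50.2, 169 and 134.1 CPM at −7 weeks in mice 6, 7, 9 and 10 and 147, 29.4, 94.9 and 91.5 CPM at 6 weeks, higher in 4 of 4 mice, and did not pass over both batches (0.95 ± 0.50, adjusted p = 0.218).

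Between −7 weeks and the mean of −5 weeks to onset, *Mmp12* and *Timp1* rose and *Mmp9* and *Mmp14* fell, which is 4 of 10 members against 3.87% of all genes (1.98% higher and 1.89% lower). *Mmp12* was 1288 to 3830 CPM at −7 weeks with a median of 2998, below all onset values of batch 2, and rose by 1.14 ± 0.27 (2.20-fold, adjusted p = 0.013). *Mmp9* was 69.9 to 1443 CPM at −7 weeks with a median of 433.7, and fell by 1.96 ± 0.56 (3.90-fold, adjusted p = 0.0333). Of the 4 mice with all times in batch 2, *Mmp12* was higher and *Mmp9* lower later in 4 of 4. *Timp1* rose by 0.81 ± 0.23 and *Mmp14* fell by 0.58 ± 0.15 (adjusted p = 0.0357 and 0.0175).

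These samples were also compared within batch 2 alone, where 7 of 10 members passed, against 6.32% of 21377 genes (2.39% higher and 3.93% lower). In that fit the −7-week samples of progressor mice 1 to 4 were set against later samples of other mice, so that time and cohort are mixed. *Mmp2* (-0.82, adjusted p = 0.00952) and *Mmp3* (-1.14, 0.045) were then also lower and *Timp3* (0.73, 0.0362) higher. In a fit with terms for mouse and batch, no member and none of the 21279 genes passed in edgeR (3011 had an unadjusted p under 0.05; DESeq2 with the batch term called 1196), with adjusted p from 0.149 to 0.26 for the 4 members. Without progressor mouse 6 no member passed, without mouse 3 it was 1, and without mouse 4 or 7 it was 2. Of the giant cell and osteoclast-like markers, *Oscar* (-2.56), *Acp5* (-1.31) and *Ctsk* (-1.24) were lower in the same comparison.

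Between −5 weeks and onset, no member passed in the model over both batches (3 had an unadjusted p under 0.05, DESeq2 called 2), and 1.8% of all genes passed (0.841% higher and 0.959% lower). *Mmp3* was 44.3, 63.3, 216.3, 258 and 304.6 CPM at −5 weeks and 15.7, 18.0, 20.3, 39.0 and 64.1 CPM at onset in batch 2, lower in 5 of 5 mice. In batch 1 it was 14.6 to 159.4 and 8.38 to 99.0 CPM, lower in 3 of 5 mice. The change of *Mmp3* was -1.56 ± 0.47 over both batches (adjusted p = 0.065), -2.51 in batch 2 (adjusted p = 0.00662) and -0.72 in batch 1 (adjusted p = 0.631). In the fit with a mouse term, *Mmp3* passed at -1.55 (adjusted p = 0.0345), as it did without progressor mouse 1 or 4.

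*Mmp2* likewise had 333.8 to 648.4 CPM at −5 weeks and 122.1 to 266.6 CPM at onset in batch 2, without overlap (-1.44, adjusted p = 0.0029), and a change of 0.26 (adjusted p = 0.809) in batch 1. DESeq2 called *Mmp3* (-1.56, adjusted p = 0.0213) and *Mmp9* (-1.92, 0.0499) over both batches.

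**Figure D3:**
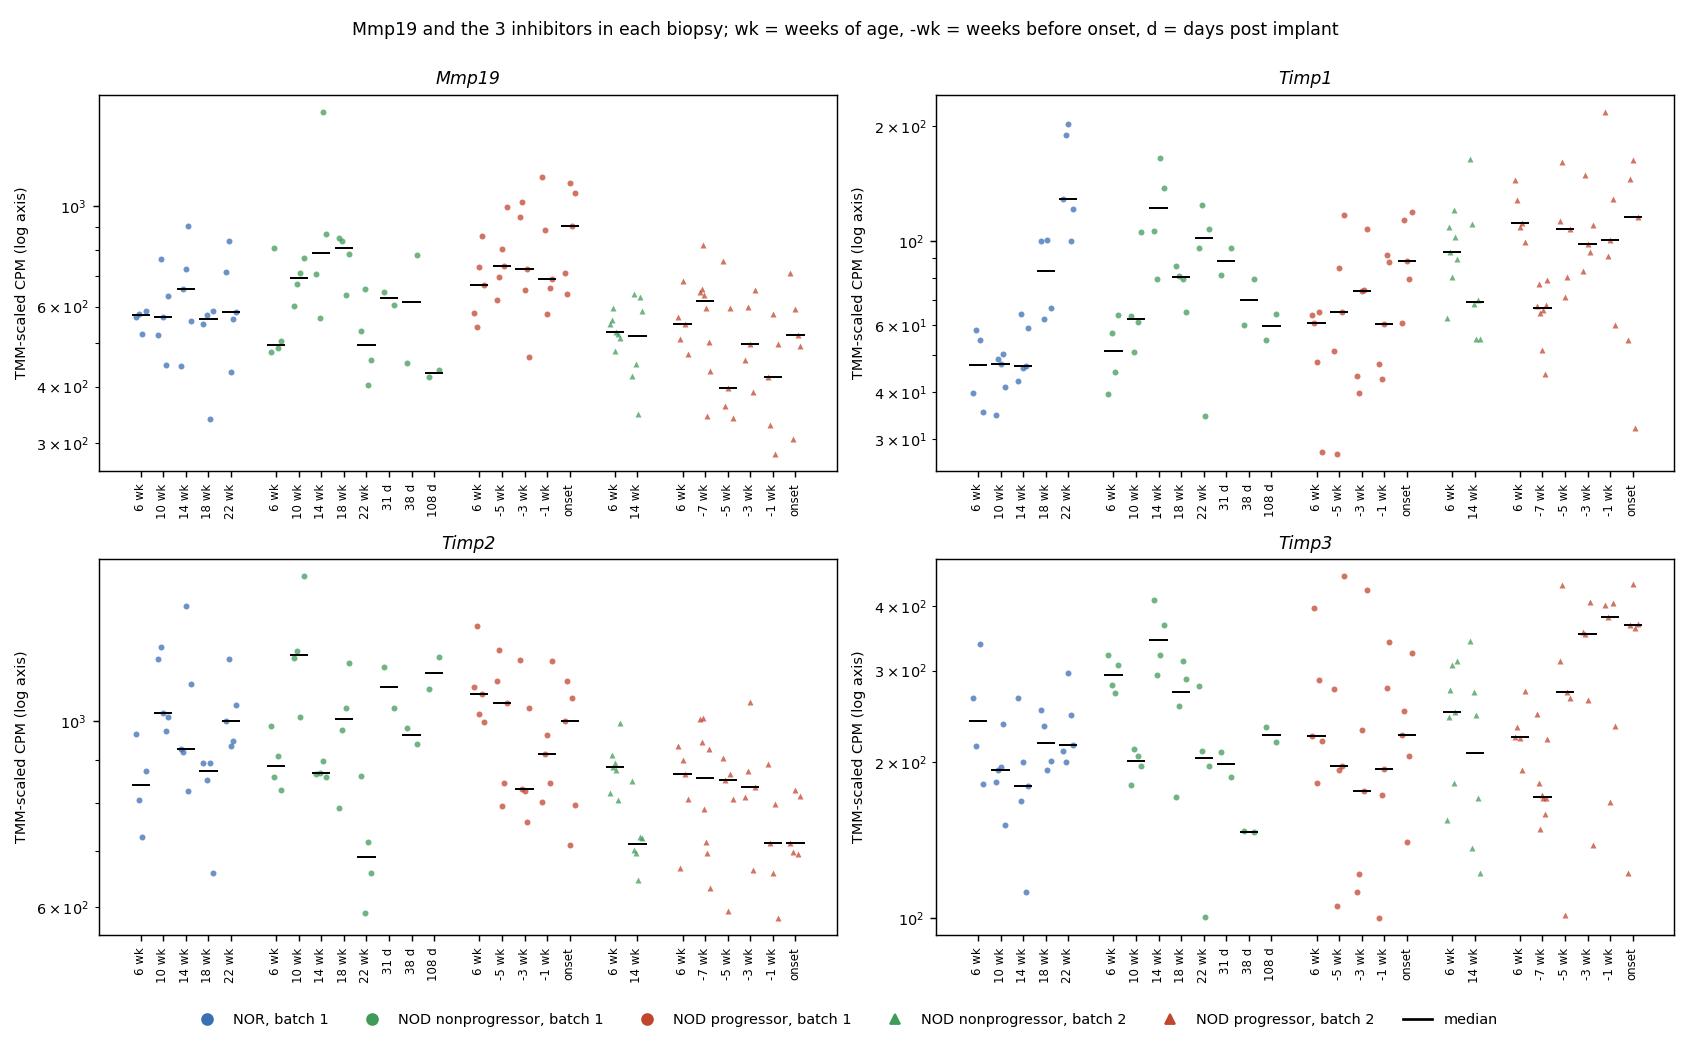
TMM-scaled CPM (log axis) of *Mmp19* and the 3 inhibitor genes in each of the 120 biopsies, by group, batch and time, with medians as bars. *Timp2* stays between 582.6 and 1490 CPM, and *Timp1* in NOR is at 100 CPM or above in all 5 mice at 22 weeks.

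Nonprogressors of batch 2 gave samples at 6 weeks (7 mice) and 14 weeks (6 of them). *Mmp2* and *Timp2* fell, which is 2 of 10 members against 31.0% of all 21050 genes (15.6% higher and 15.4% lower). *Mmp2* ran from 498.1 to 1104 CPM (median 841.6) at 6 weeks and from 313.6 to 625.7 CPM (median 433.3) at 14 weeks, and fell by 0.87 ± 0.19 (1.82-fold, adjusted p = 0.00238), in 6 of 6 mice. *Timp2* ran from 806.2 to 994.8 CPM and from 645.7 to 848.7 CPM, and fell by 0.29 ± 0.07 (adjusted p = 0.00463). Adding a mouse term left *Timp2* at -0.26 (adjusted p = 0.0523).

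Markers of surrounding tissue differed between the same samples, with 5 of 5 adipocyte, 6 of 6 skeletal muscle and 5 of 5 mammary epithelium markers higher at 14 weeks. At 14 weeks, mice 6 to 10 had adipocyte sums of 302.3 to 641.3 CPM, skeletal muscle sums of 1952 to 5585 CPM and mammary sums of 87.4 to 166.6 CPM. At 6 weeks, all 7 mice had 35.0 to 51.0, 2.30 to 390 and 0.125 to 0.380 CPM. Mouse 5 at 14 weeks had 17.7, 9.03 and 0.744 CPM of these sums; its *Mmp2* went from 498.1 to 383.6 CPM and its *Timp2* from 822.3 to 848.7 CPM. The part of the other tissue in the lower *Mmp2* and *Timp2* was not tested.

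*Mmp9* and *Mmp12* did not pass. *Mmp9* was 52.7 to 367.8 CPM at 6 weeks and 30.7 to 1135 CPM at 14 weeks (0.87 ± 0.64, adjusted p = 0.324), and was higher at 14 weeks in 3 of 6 mice. *Mmp12* was 2559 to 5501 and 1341 to 6777 CPM (0.06 ± 0.28, adjusted p = 0.892). In batch 1 the same ages gave 692.1 to 1752 and 28.9 to 70.8 CPM of *Mmp9*. Giant cell and osteoclast-like markers included 2 higher (*Dcstamp* 0.94, *Ctsk* 0.92) and none lower in batch 2, all 8 fibroblast markers were lower, and the difference between batches was not tested.

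At the same ages of 6 and 14 weeks, batch 2 nonprogressors had higher *Mmp3* (1.44 ± 0.15, adjusted p = 1.28e-07) and *Mmp2* (0.56 ± 0.16) and lower *Mmp19* (-0.48 ± 0.16), *Timp3* (-0.48 ± 0.17) and *Timp2* (-0.14 ± 0.06) than batch 1. These were 5 of 10 members against 49.6% of all genes (25.1% higher and 24.6% lower). *Mmp3* at 6 weeks was 38.3 to 57.5 CPM in batch 1 and 88.8 to 103.3 CPM in batch 2, without overlap. Without nonprogressor mouse 1, 3, 6 or 9 it was 3 of 10. Sequencer, run and cohort of mice changed together between batches and cannot be told apart.

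Within each batch, the levels of the members were related to each other over samples. These are correlations over repeated biopsies of the same mice that share library, depth and tissue composition, and they are given as descriptions. *Mmp12* and *Mmp9* had a Pearson r of -0.84 over the 74 samples of batch 1 and -0.83 over the 46 of batch 2. *Mmp12* also ran against *Mmp14* (-0.77 and -0.75), *Mmp2* (-0.71 and -0.66) and *Mmp3* (-0.62 and -0.68).

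*Mmp2*, *Mmp3* and *Mmp14* were related to each other at 0.80, 0.80 and 0.80 in batch 1 and at 0.70 to 0.78 in batch 2. Among the neighbours on chromosome 9, *Mmp13* had 0.17 and -0.23 with *Mmp12* and 0.26 and 0.41 with *Mmp3*. Both *Mmp12* and *Mmp13* had a higher later mean than at 6 weeks in 10 of 10 progressors. *Mmp19* had -0.28 and 0.60 with *Mmp9*, 0.31 and -0.47 with *Mmp12*, and 0.21 and 0.33 with *Mmp13*. Among the inhibitors, *Timp2* had 0.72 and 0.58 with *Mmp2*, *Timp1* had 0.58 and 0.33 with *Mmp12*, and *Timp3* had 0.26 and 0.71 with *Mmp12*.

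**Figure D4:**
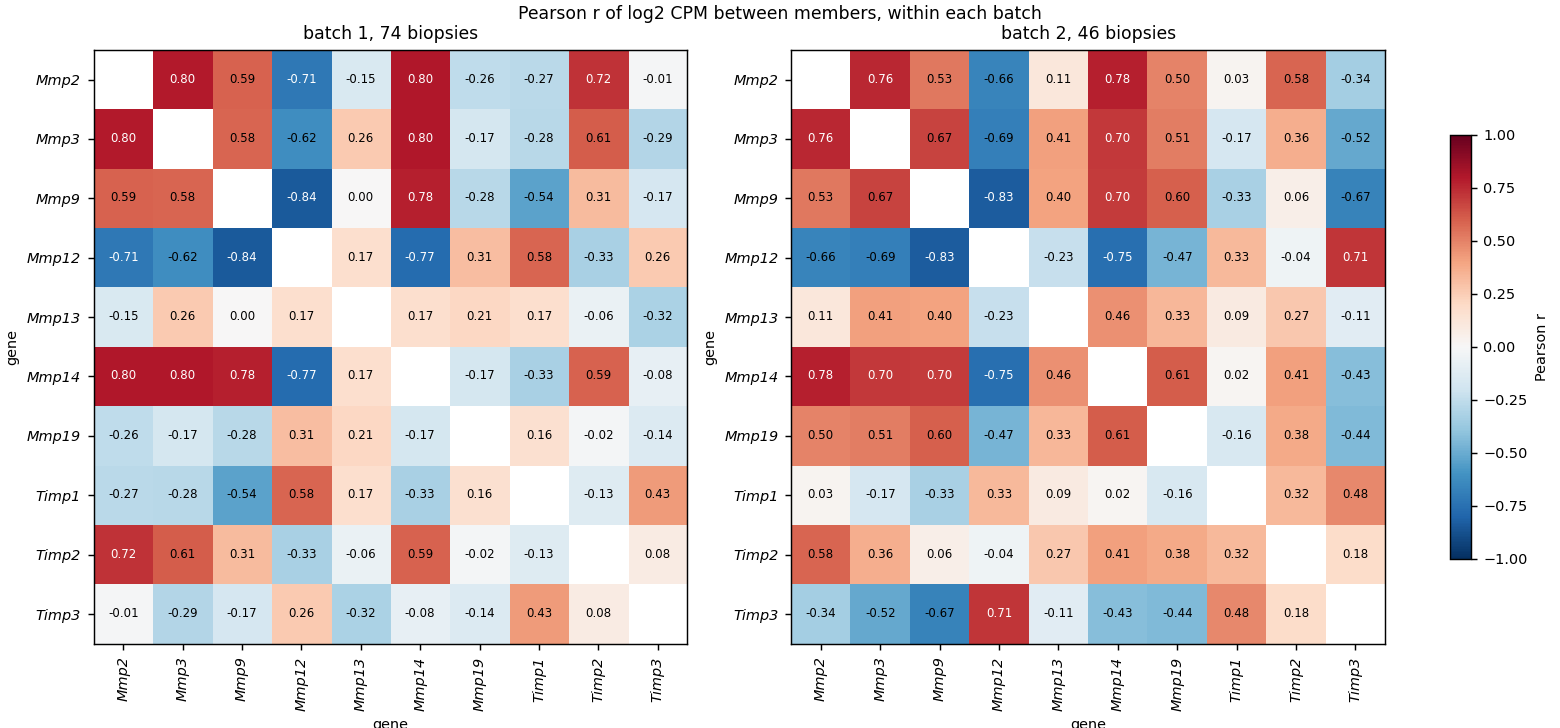
Pearson r of log2 CPM between the 10 genes over the 74 samples of batch 1 (left) and the 46 of batch 2 (right). *Mmp12* is negative against *Mmp2*, *Mmp3*, *Mmp9* and *Mmp14* in both panels, between -0.62 and -0.84, while *Mmp19* against *Mmp9* is -0.28 in the left and 0.60 in the right.

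Over all genes with a mean of at least 1 CPM in each batch, the pattern most like that of *Mmp9* was that of *Oscar* (r 0.98 in batch 1 and 0.96 in batch 2), a receptor known from osteoclasts, followed by *Slc9b2* (0.95 and 0.96), a sodium/proton exchanger also known from osteoclasts. For *Mmp2* these were *Pcdhgc3* (0.92 and 0.97), a protocadherin, and *C1ra* (0.94 and 0.94), a complement protease. *Mmp12* was closest to *Dhrs9* (0.91 and 0.93) and *Gramd1b* (0.90 and 0.93), *Mmp3* to *Cpxm1* (0.91 and 0.89) and *Vcam1* (0.82 and 0.87), and *Mmp14* to *Jdp2* (0.85 and 0.88) and *Pcdhgc3* (0.87 and 0.84).

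The remaining members had no neighbour above a mean r of 0.79. *Mmp13* was closest to *Mmp10* (0.71 and 0.57), another gene of the family, and *Mgat4a* (0.71 and 0.52), and *Mmp19* to *Dusp18* (0.67 and 0.65) and *Lmna* (0.56 and 0.59). *Timp1* was closest to *Serpinb2* (0.77 and 0.66) and *Fn1* (0.66 and 0.76), *Timp2* to *Sulf2* (0.74 and 0.84) and *Aebp1* (0.77 and 0.81), and *Timp3* to *Hs6st2* (0.51 and 0.77) and *Etv1* (0.47 and 0.80).

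Against summed marker levels, *Mmp2* followed the fibroblast markers (0.88 and 0.92) and *Mmp14* did so less closely (0.76 and 0.77). *Mmp9* followed the giant cell and osteoclast-like markers (0.79 and 0.83) and had 0.21 and 0.12 with the markers of neutrophils, another known source of this enzyme. The neutrophil sum is mostly *Csf3r* (median 20.4 CPM), with *Cxcr2* next at 4.07 CPM. *Mmp12* had -0.06 and 0.45 with the macrophage markers and -0.61 and -0.64 with the giant cell and osteoclast-like markers.

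**Figure D5:**
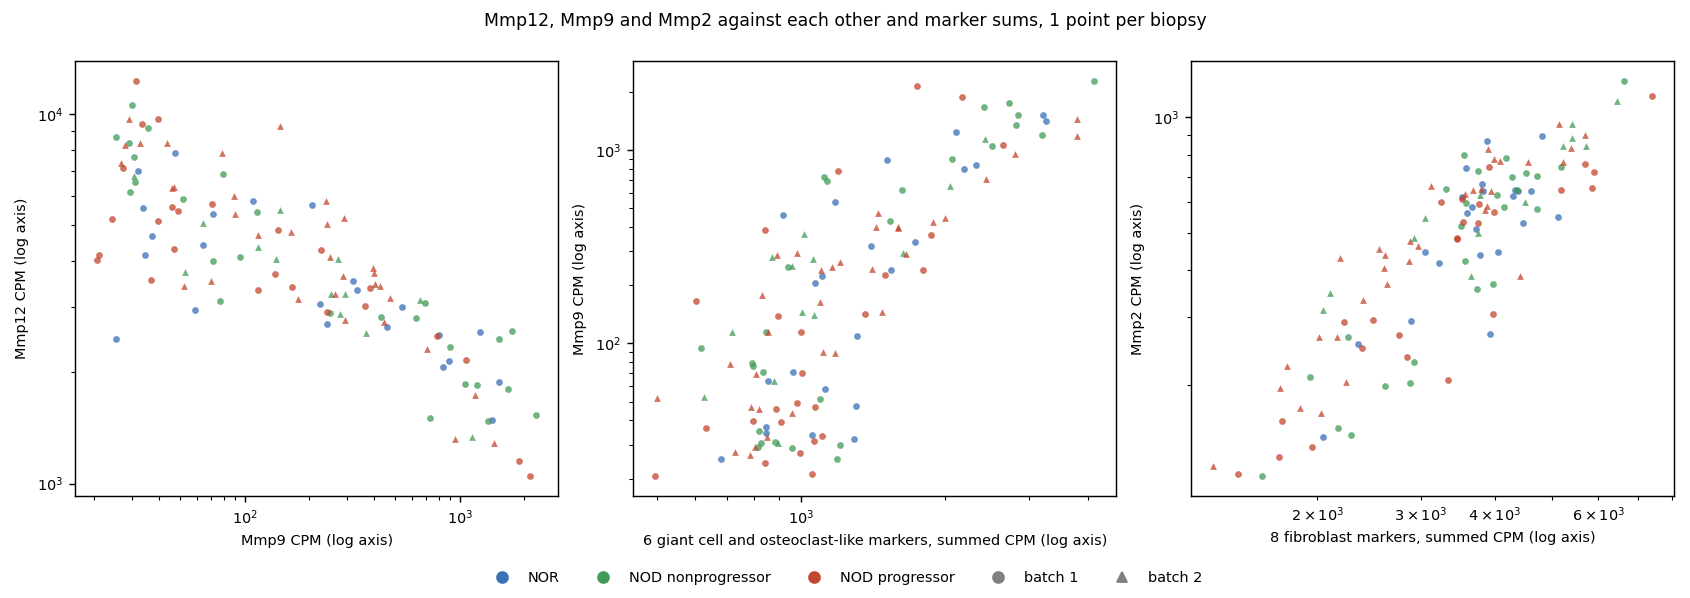
*Mmp12* against *Mmp9* (left), *Mmp9* against the summed CPM of 6 giant cell and osteoclast-like markers (middle) and *Mmp2* against that of 8 fibroblast markers (right), on log axes with 1 point per biopsy, coloured by group and shaped by batch. *Mmp12* is lower where *Mmp9* is higher (r -0.84 and -0.83), and *Mmp2* rises with the fibroblast sum (0.88 and 0.92).

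Of 16 other MMP genes, *Mmp1a*, *Mmp1b*, *Mmp7* and *Mmp20* were at 0 in 111, 72, 68 and 108 of the 120 samples, and the highest median was 17.2 CPM (*Mmp23*). In progressors, 12 were tested between 6 weeks and the later times, where 19.5% of all genes rose and 19.9% fell. Of the 12, 1 rose (*Mmp10*, 1.07) and 5 fell (*Mmp16* -1.57, *Mmp27* -1.17, *Mmp23* -0.90), with a median of -0.12 against 0.01 over all genes. In nonprogressors of batch 1, *Mmp10* rose (1.78) and *Mmp16* (-1.36) and *Mmp17* (-0.94) fell, where 5.93% of all genes rose and 6.13% fell. Levels were low for *Mmp10* and *Mmp16*, with medians of 1.34 and 0.63 CPM over all samples.

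Of 7 other genes listed as inhibitors, 6 were tested in progressors over the same interval, with a median of -0.95, and 4 fell, against 19.9% of all genes. Of these *A2m* (-1.82), which traps proteases, *Pcolce* (-1.15), and *Reck* (-0.96), a membrane-bound MMP inhibitor, changed most. *Pcolce* encodes an enhancer of procollagen processing and is not a typical MMP inhibitor. In nonprogressors of batch 2, *A2m* (-1.80), *Reck* (-1.05) and *Pcolce* (-1.02) fell and *Timp4* rose (2.76), where 15.4% of all genes fell and 15.6% rose. The median of *Timp4* over all samples was 0.98 CPM. Of this list only *Pcolce* (-0.65) fell in nonprogressors of batch 1, where 6.13% of all genes did. None passed in NOR, where 0.0946% of all genes passed between 6 weeks and the later ages.

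Of 13 activators of proMMPs and their regulators, 10 were tested in progressors, where 19.5% of all genes rose and 19.9% fell. There *Klkb1* (1.21) and *Plau* (0.43), the urokinase gene, rose while *Pcsk5* (-1.32), *Plat* (-0.86) and *Serpine2* (-0.67) fell. The level of *Klkb1* was low, with a median of 0.82 CPM over all samples, and the plasminogen gene *Plg* was at 0 in 100 samples. *Plau* also rose in nonprogressors of batch 1 (0.70), and from 10 to 22 weeks in nonprogressors (0.82). In NOR mice, *Serpinb2* (4.38), *Pcsk5* (1.60) and *Plaur* (1.27), the urokinase receptor gene, rose as well between 10 and 22 weeks, where 5.17% of all genes did.

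Of 23 cytokines and transcription factors known to induce MMP genes, 18 were tested in progressors, where 19.5% of all genes rose and 19.9% fell. Of the 18, 5 rose (*Il1b* 0.90, *Il1a* 0.66, *Tnf* 0.55) and 5 fell (*Fosl1* -0.67, *Fosb* -0.51, *Fosl2* -0.43), with a median of -0.02. In nonprogressors of batch 1, *Il13* (3.24) and *Tnf* (0.93) rose, where 5.93% of all genes did. *Il13* had a median of 0.0534 CPM over all samples. *Jun*, *Junb* and *Jund*, subunits of AP-1, were lower in batch 2 than in batch 1 nonprogressors by 1.20, 1.46 and 1.90 on the log2 scale. In that comparison 24.6% of all genes were lower, and sequencer, run and cohort of mice cannot be told apart.

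Of the matrix genes whose products MMPs degrade, in progressors 16 of 18 fell (19.9% of all genes did) and none rose between 6 weeks and the later times. The median was -1.19 against 0.01 over all genes, and the largest changes were in *Acan* (-2.11), *Eln* (-1.75) and *Col18a1* (-1.54). The level of *Acan* was low, with a median of 0.41 CPM over all samples. In nonprogressors 8 of 18 fell in batch 1, where 6.13% of all genes did, and 14 of 18 at 14 weeks in batch 2, where 15.4% did. In NOR none passed between 6 weeks and the later ages, where 0.0757% of all genes fell. Between 10 and 22 weeks in NOR, *Fn1* (1.52) and *Vcan* (1.20) rose and *Col18a1* (-1.01) fell.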

How the data were processed

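Per the labels and the study's methods, total RNA of the biopsies was depleted of ribosomal RNA and sequenced in 2 batches on different instruments. The authors deposited expected counts per Ensembl gene, without normalization, as whole numbers in 1 table per batch; the submitters' processing notes name cutadapt, FastQC, STAR, RSEM, MultiQC and GRCm38, without versions. Strand settings are not given in the sources used here. The tables share 55487 genes, of which 55141 matched GENCODE M21, the source of coordinates and lengths. The members and lists were chosen with earlier results of these data known, and all 10 members are named; of the lists, at most 3 genes per direction that passed.

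Counts were filtered (filterByExpr), scaled (TMM) and tested with edgeR 4.0.16 in R 4.3.3 at an adjusted p-value under 0.05, with batch as a term where a comparison spans both; DESeq2 1.42.0 was an alternative. Strains were compared on counts summed per mouse. Correlations used log2(CPM + 0.5) (Python 3.11.15, figures with matplotlib 3.10.9), and likeness of pattern used the mean of both batches' r. Scripts were tested on simulated counts. Mouse numbers in the labels pair samples of 1 animal; over 2000 genes, deviations of same-mouse samples from group means had a mean r of -0.0217 in NOR, 0.00339 in nonprogressors and -0.0174 in progressors. No samples held identical values, and the closest samples of a group had a chi-square of 12.0 per gene, above sampling noise. In the strain test and in the comparison at 6 weeks of age, p-values measure the spread between mice. The other main fits had no term for the mouse and took repeat biopsies of a mouse as separate samples. Their p-values measure the spread between biopsies within a group and time. Depth was 4722396 to 56185434 counts in batch 1 and 29029239 to 43880986 in batch 2. The 6 samples labelled by days after implantation carry the mouse numbers 1 and 2; whether these are mice 1 and 2 of the age series is not stated, and they entered no test.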

Additional observations from a re-analysis of the deposited data

Results flagged for a closer look

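Samples that stood apart from the others of their group, by a gap of the highest or lowest sample beyond the 95% critical value of Dixon's test on the log2 scale, were found in 17 of 230 combinations of a gene and a group (7.39%), where chance gives about 5%. In the NOR samples at 18 weeks, mouse 4 had 498.1 CPM of *Mmp13* (others 63.2 to 68.9) and 340.2 of *Mmp19* (549.4 to 585.7), and mouse 5, the library with most counts on a ribosomal RNA gene, had 659.4 of *Timp2* (851.3 to 892.9). *Mmp12* in NOR mouse 2 at 14 weeks was 5821 CPM (2528 to 3063), and *Mmp9* in NOR mouse 3 at 22 weeks was 63.8 (32.0 to 37.0).

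In nonprogressors of batch 1 at 6 weeks, *Mmp14* was 506.4 CPM in mouse 4 (661.4 to 694.7) and *Mmp19* 808.4 in mouse 2 (476.5 to 502.9). At 10 weeks *Mmp14* was 479.5 in mouse 2 (721.7 to 773.9). At 14 weeks *Mmp3* was 32.7 in mouse 1 (19.1 to 20.9), *Mmp9* 70.8 in mouse 2 (28.9 to 30.8) and *Mmp13* 61.0 in mouse 2 (97.7 to 101.1).

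In progressors at 6 weeks, *Mmp2* was 1139 CPM in mouse 2 (646.7 to 757 in batch 1) and 383.7 in mouse 7 (763.4 to 962.6 in batch 2). *Mmp3* at −7 weeks was 50.2 in mouse 7 (134.1 to 247.1), *Timp2* at −5 weeks 594.1 in mouse 8 (808.4 to 904.4), *Mmp9* at −3 weeks 362.1 in mouse 1 (21.0 to 46.9) and *Timp3* at onset 122.1 in mouse 6 (362.5 to 439.9).

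The 6 nonprogressor samples timed from implantation enter no comparison, and both samples of a day lay above all 20 nonprogressor samples of batch 1 with an age label for 3 values. These were *Mmp3* at 108 days (mean 265.2 CPM, against at most 222), *Mmp13* at 38 days (270.7, against at most 177) and *Mmp14* at 38 days (991.9, against at most 773.9).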

How the results depend on the processing

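Over all members, comparisons and alternatives, 128 of 2750 log2 changes had another sign than reported, and none of these passed the test in either fit. Of 275 counts of members called, 244 were within 1.5 times the reported count. The cause was not tested for the others. Without a filter on low counts, 2 members passed for later ages in nonprogressors and 2 for −5 weeks to onset against −7 weeks, where more genes were tested. For *Mmp2*, onset against −5 weeks was 0.26 in batch 1 alone, and batch 2 alone gave 2 calls there. Batch 2 alone gave 2 calls for later times in progressors and 7 for −5 weeks to onset against −7 weeks. DESeq2 gave 2 calls for onset against −5 weeks. With the mouse as replicate block, calls numbered 0 for −5 weeks to onset against −7 weeks, 1 for onset against −5 weeks and 1 for 14 against 6 weeks in nonprogressors of batch 2, and the block moved no other count of members by over 1.5 times. Strain calls were 0 with 6-week samples or nonprogressors alone.

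Alternatives chosen after seeing the data gave a 75.8-fold range of *Mmp3* and 2 strain calls without the 18-week library of NOR mouse 4, and 1 call for later ages in nonprogressors without the 22-week libraries. Leaving out 1 mouse at a time gave 0 to 1 strain calls, 1 to 5 for later ages in nonprogressors, 2 to 3 and 4 to 5 for 22 against 10 weeks in NOR and nonprogressors, 4 to 5 for later times in progressors, 1 to 2 for −7 against 6 weeks, 0 to 5 for −5 weeks to onset against −7 weeks, 0 to 1 for onset against −5 weeks and 3 to 5 between batches. It gave 0 to 0 for NOR later ages, both differences of change and progressors against nonprogressors at 6 weeks. Scaling by total count moved no median level by more than 1 SD. The shallowest library had 4722396 counts, and *Mmp9* had the largest standard error of the 10 genes in each of the 14 comparisons.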

Other observations

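The 6 nonprogressor biopsies labelled by days after implantation came from batch 1 and are numbered mouse 1 and mouse 2 at each day, given below in that order; whether these are mice 1 and 2 of the age series is not stated. *Mmp9* was 431.7 and 902.5 CPM at 31 days, 1350 and 2273 at 38 days and 1054 and 623.6 at 108 days, against a range of 25.3 to 1752 in the 20 nonprogressor samples of that batch with an age label. *Mmp12* was 2825 and 2347, 1473 and 1533, and 1859 and 2803 CPM on the same days. *Mmp2* was 647 and 627.9, 648.2 and 714.8, and 726.3 and 796.8 CPM. *Mmp3* was 171.2 and 211.2, 210.6 and 173.6, and 257.7 and 272.8 CPM. The giant cell and osteoclast-like markers summed to 1536 to 4119 CPM in these 6 samples. The labels do not give their ages, and with 2 samples a day no test was made.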
